A study of Mus musculus with 3 samples.

Results

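Retained-intron transcripts are RNAs annotated as carrying intron sequence next to exons of a gene, in place of the fully spliced message. In this study 1785 of them were listed as enriched over input with an antibody against Mettl3, with one against Zfp217 or with both, out of 13595 listed transcripts of all kinds. The members were all rows whose annotation source was retained_intron in the authors' 2 deposited tables. The Mettl3 table held 1079 of them among 9501 transcripts (11.4%), from 895 gene symbols, and the Zfp217 table held 1136 among 8120 (14%), from 946 gene symbols.

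RNA was recovered by RNA immunoprecipitation and sequencing (RIP-seq) from nuclei of CCE, a mouse embryonic stem (ES) cell line grown without feeder cells in medium with serum and leukemia inhibitory factor and given no treatment. The 3 libraries were the input, the Mettl3 RIP (Bethyl antibody) and the Zfp217 RIP (Santa Cruz antibody), 1 library each, so every value below is that of a single library, no difference has a replicate check and no p-value is given. Both RIPs were set against the same input library. A library with a control antibody was not analysed here, so binding that does not depend on the antibody's target cannot be told apart from binding that does.

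Mettl3 is the catalytic subunit of the nuclear complex that writes N6-methyladenosine (m6A), the commonest internal mark of messenger RNA, and Zfp217 is a zinc finger protein that works with chromatin regulators. Introns are normally cut out while RNA is being made, from a GT at the donor (5′) splice site to an AG at the acceptor (3′) splice site. Transcripts that keep one often stay in the nucleus or are destroyed after export, and genes for splicing factors are known for controlling their own amount in this way. Nuclear extracts also hold unfinished transcripts whose introns have not been removed yet, and short-read values do not separate those from stable retained-intron RNAs.

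The values are FPKM, fragments scaled to the length of the transcript and to the depth of the library. The tables are a selection: the lowest RIP value of a retained-intron transcript was 1.0 FPKM and the lowest ratio of RIP to input 1.5, and 124 transcripts with Mettl3 and 116 with Zfp217 lay under 1.1 FPKM, with 46 and 40 under a ratio of 1.6. A transcript absent from a table may therefore have been present and below either limit, and every listed member is higher in the RIP than in the input because of that selection. Of the ES cell markers, 8 of 12 were listed in each table (Dppa4, Esrrb, Fgf4, Klf4, Nanog, Pou5f1, Sall4 and Sox2), against 0 of 7 fibroblast, 0 of 4 neural and 0 of 7 mesoderm and endoderm markers.

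What these transcripts contain was read from GENCODE release M21 on the mouse build GRCm38, matched by transcript ID, since the authors worked on mm9. Models with protein_coding introns to compare were found for 1665 listed retained-intron transcripts. Only 508 of them (30.5%) held a complete intron of a protein_coding transcript of the same gene, 368 holding 1 intron and 140 holding more, up to 12 with alternative splice sites counted separately. Another 1143 (68.6%) held part of an intron, and 14 held neither. Transcript ends that lie inside an intron were the commonest form: 661 (39.7%) began inside an intron, 771 (46.3%) ended inside one, 110 did both, and 343 did neither.

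Complete retained introns were short, and the examples below are shown in full because each lies in a named transcript whose values follow. They are written 5′ to 3′ on the transcribed strand, with the GT of the donor site and the AG of the acceptor site in capitals, and all interrupt coding sequence.
Hirip3, GRCm38 chr7:126862721-126862817, plus strand: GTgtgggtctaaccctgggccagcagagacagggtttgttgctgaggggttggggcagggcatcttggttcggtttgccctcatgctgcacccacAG
Hnrnpl, GRCm38 chr7:28821274-28821391, plus strand: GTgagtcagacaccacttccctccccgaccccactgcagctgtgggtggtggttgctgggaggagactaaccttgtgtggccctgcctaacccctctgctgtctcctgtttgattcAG
Eef1a1, GRCm38 chr9:78479775-78479851, minus strand: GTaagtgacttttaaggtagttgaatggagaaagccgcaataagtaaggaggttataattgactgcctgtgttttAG
Trim28, GRCm38 chr7:13029125-13029206, plus strand: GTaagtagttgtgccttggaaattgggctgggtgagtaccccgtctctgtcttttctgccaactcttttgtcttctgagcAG
Trim28, GRCm38 chr7:13029253-13029342, plus strand: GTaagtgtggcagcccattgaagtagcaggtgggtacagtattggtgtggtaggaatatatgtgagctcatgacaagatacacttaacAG
Hsp90ab1, GRCm38 chr17:45571620-45571764, minus strand: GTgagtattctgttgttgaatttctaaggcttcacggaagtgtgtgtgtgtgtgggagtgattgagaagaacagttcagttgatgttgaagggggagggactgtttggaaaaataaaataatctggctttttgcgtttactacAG

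These introns are 97, 118, 77, 82, 90 and 145 bases long. Over all listed members there were 725 distinct complete introns with a median length of 238 bases (middle 50% from 111 to 515), whereas the 19785 other introns of the same 1305 genes had a median of 1113 bases (361 to 2752). Retained introns of transcripts that were annotated but not listed were as short, with a median of 233 bases in the same genes and 293 bases in other genes. Of the 725 introns, 715 (98.6%) ran from GT to AG and 5 from GC to AG, 678 (93.5%) interrupted coding sequence, 40 lay in the 5′ UTR and 7 in the 3′ UTR. Their median GC content was 51.8%.

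The transcripts with only part of an intron read across a splice site, some across both a donor and an acceptor. The windows below show 1 such site in transcripts that lead the tables by ratio or by RIP level. Each has 30 bases, 9 of the exon and 21 of the intron, 5′ to 3′ on the transcribed strand, with the GT of a donor or the AG of an acceptor in capitals.
Psat1 acceptor, GRCm38 chr19:15909421-15909450, minus strand: tatgttttatccctgcttcAGcatctacgt
Ncor1 acceptor, GRCm38 chr11:62330131-62330160, minus strand: tatctacctaccgtctattAGatgagtcca
Tfrc acceptor, GRCm38 chr16:32624747-32624776, plus strand: gatgtatttctccttttacAGgtaaagcat
Tcp1 acceptor, GRCm38 chr17:12920255-12920284, plus strand: tatccttaactgttgtctcAGaaatggtga
Pfas acceptor, GRCm38 chr11:68990567-68990596, minus strand: tcatgggtctccccactgcAGgcccgaata
Acin1 donor, GRCm38 chr14:54651696-54651725, minus strand: aagaaagagGTaactagccaagccacctgt
Khdrbs1 donor, GRCm38 chr4:129730180-129730209, minus strand: tatccaaagGTaatgtacagtgggctccct
Rpap1 donor, GRCm38 chr2:119767471-119767500, minus strand: ctgactcagGTatgtcctacactatcaagg
Mybl2 donor, GRCm38 chr2:163072906-163072935, plus strand: attgagtcgGTatgttgatcccagcaggta

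The first 5 belong to transcripts that start inside the intron and run into the next exon, and the last 4 to transcripts that leave their last exon through an unused donor site and end in the intron. The intronic share of the members was wide, with a median of 40.3% of the length and 320 intronic bases. GGACT, a common form of the m6A consensus, searched in these 5 letters on the transcribed strand only, occurred 0.851 times per kilobase of complete listed retained introns, against 0.960 in unlisted ones of the same genes and 0.949 in those of other genes. Among introns of 100 to under 200 bases, 14.3% of 175 listed ones held it, against 16.9% and 16%. Whole listed transcripts had 1.01 GGACT per kilobase and both unlisted sets 1.05. Methylation itself was not measured in these libraries.

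Retained-intron transcripts were low in both RIPs. Their median RIP level was 1.68 FPKM with Mettl3 (middle 50% from 1.25 to 2.55, highest 44.4) and 1.59 FPKM with Zfp217 (1.23 to 2.36, highest 90.6). Listed protein_coding transcripts had medians of 3.21 and 2.63 FPKM, nonsense_mediated_decay transcripts 1.98 and 1.94, and processed_transcript RNAs 1.80 and 1.81. A RIP level under 2 FPKM was found for 62.1% of retained-intron transcripts in the Mettl3 table and 65.8% in the Zfp217 table, against 30.3% and 36.7% of protein_coding ones. Only 29 and 20 members reached 10 FPKM.

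The depth behind these levels was small. From the steps that single reads make in the values of short RNAs, the Mettl3 RIP had about 9525000 fragments, the Zfp217 RIP 6875000 and the input 5725000. A retained-intron transcript then rested on a median of 14 fragments in the Mettl3 RIP and 8.31 in the Zfp217 RIP, against 96.5 and 42.6 for protein_coding transcripts, and 39.7% and 56.4% of members had fewer than 10. The 95% interval of the ratio covers counting error only and not the sharing of reads among transcripts of one gene. With input of at least 0.01 FPKM and a known length, it lay above 1 for 288 of 524 members in the Mettl3 table. In the Zfp217 table it did for 209 of 526. Over all such listed transcripts the counts were 4302 of 5384 and 2625 of 3974. Protein_coding ones had 3626 of 4102 and 2179 of 2817. The members' share was thus below both, among transcripts all listed at a ratio of at least 1.5.

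About 1 in 2 members was near absent from the input. Input was under 0.01 FPKM for 535 of 1079 retained-intron transcripts in the Mettl3 table (49.6%, 524 of them listed at 0) and for 590 of 1136 in the Zfp217 table (51.9%, 577 at 0). Over all listed transcripts the shares were 35.8% and 44.2%. Protein_coding transcripts had 27.7% and 37.1%, nonsense_mediated_decay transcripts 57.6% and 61.8%, and processed_transcript RNAs 55.5% and 60.6%. Retained-intron transcripts thus stood above coding transcripts and below the other noncoding classes in both tables. At an input of 0 the ratio has no finite value. For the 11 and 13 members above 0 but under 0.01 FPKM it was not used. All of these members are therefore given below by RIP level only.

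Length and level moved with this share. Listed retained-intron transcripts had a median length of 836 bases in the Mettl3 table and 784 in the Zfp217 table, whereas protein_coding ones had 3159 and 2394. Within transcripts of 200 to under 500 bases, 81.5% of retained-intron and 76.5% of protein_coding transcripts in the Mettl3 table had input under 0.01 FPKM. At 2000 bases and over the shares were 23.5% and 20.4%. In the Zfp217 table the same pairs were 82.6% and 71.0% for the shortest transcripts and 21.1% and 30.3% for the longest. The excess over protein_coding transcripts was therefore smaller within a length class than over all lengths, and at 2000 bases and over in the Zfp217 table the order was the opposite.

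**Figure D1:**
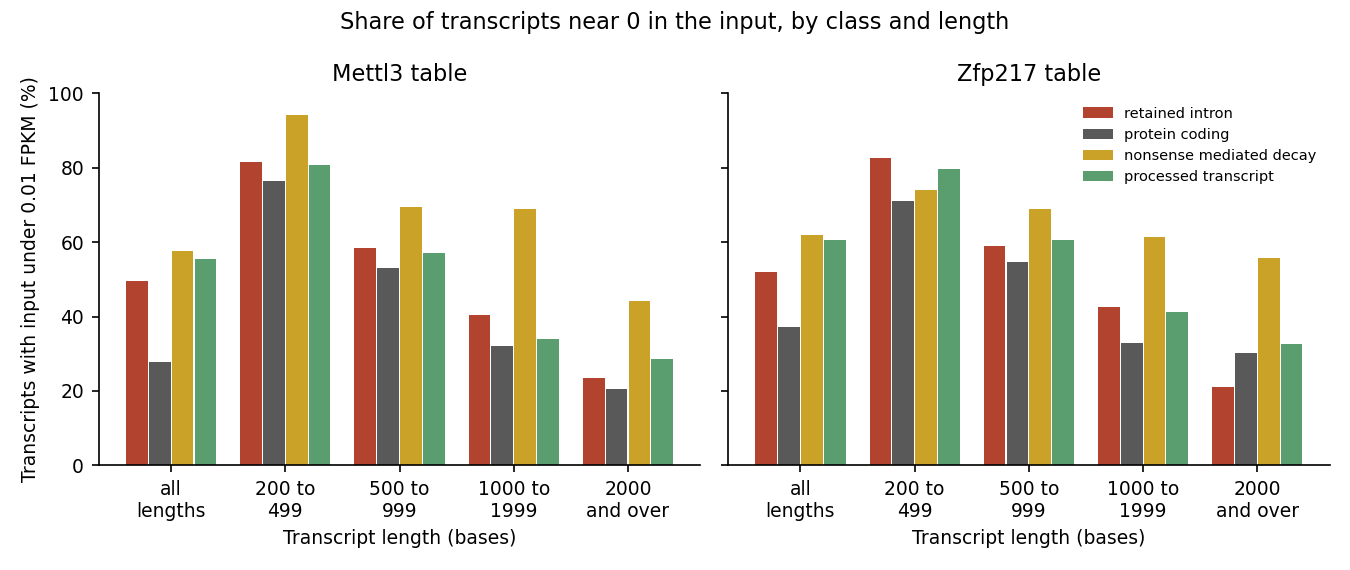
Share of listed transcripts (%) with input under 0.01 FPKM, by annotation class and transcript length in bases, for the Mettl3 and Zfp217 tables; each bar is 1 class in 1 library comparison, without replicates. The share is highest in the shortest and lowest in the longest transcripts of all 4 classes, and retained-intron bars stand close to protein_coding bars of the same length.

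The RIP level showed the same gradient. With Mettl3 the share near 0 in the input was 59.3% of retained-intron transcripts at 1 to 2 FPKM and 18.4% at 8 FPKM and over, against 48.7% and 6.17% of protein_coding ones. With Zfp217 the values were 57.4% and 16.7% against 54.0% and 7.88%. At matched RIP level, then, retained-intron transcripts were more often near 0 in the input than protein_coding transcripts in both the lowest and the highest class of both tables.

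A few members near 0 in the input were abundant in a RIP. Hnrnpl transcript ENSMUST00000174526 (chr7:28821213-28822244, plus strand, 672 bases, of which 121 are intronic) was listed at 0 in the input, at 1.12 FPKM with Mettl3 and at 90.6 FPKM with Zfp217. It carries the complete 118-base intron printed above, and Hnrnpl encodes an RNA-binding regulator of splicing. This was the highest Zfp217 value of any member, and it rested on about 333 fragments against 5.70 in the Mettl3 RIP. The other Hnrnpl retained-intron transcripts did not share it: ENSMUST00000173750 had 10.3 FPKM in the input and 19.7 with Mettl3, ENSMUST00000174396 had 0 and 2.62, and both were listed only with Mettl3.

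Among members near 0 in the input, the next highest with Zfp217 were transcripts of Cox7b (a cytochrome c oxidase subunit, 14.5 FPKM), Pfas (a purine synthesis enzyme, 9.0), Mcm10 (a DNA replication factor, 8.51), Hspa4 (a chaperone, 8.23) and Hsp90ab1 (a chaperone, 6.92). With Mettl3 they were transcripts of Srp72 (a signal recognition particle protein, 18.0 FPKM), Pfas (15.6), Polr3g (an RNA polymerase III subunit, 15.0), Wnk1 (a kinase, 14.3), Cdk8 (a Mediator kinase, 13.3) and Arid1a (a SWI/SNF subunit, 12.6). The Pfas transcript ENSMUST00000146490 (chr11:68986460-68990606, minus strand) has 31 intronic bases in 2584, and the Wnk1 transcript ENSMUST00000159903 (chr6:119923969-119927261, minus strand) has 27 in 2934. Nearly all of their length is thus exon sequence.

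**Figure D2:**
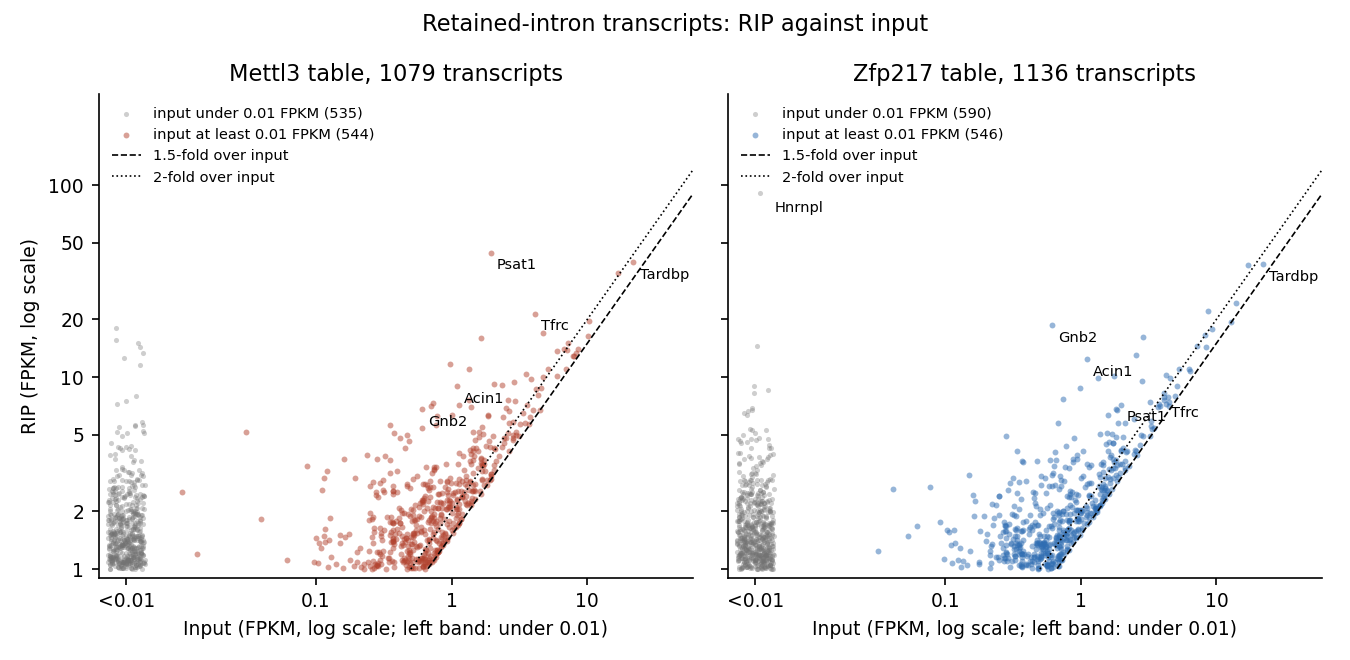
RIP level against input level (FPKM, log scales) of the 1079 retained-intron transcripts in the Mettl3 table and the 1136 in the Zfp217 table; each point is 1 transcript, grey points in the left band have input under 0.01 FPKM and are spread sideways for visibility only, and the lines mark ratios of 1.5 and 2. All points lie above the 1.5-fold line because of the selection, and most are under 5 FPKM in the RIP.

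Fold changes were taken as log2((RIP + 1)/(input + 1)), which understates the change of low transcripts, for members with a mean of at least 1 FPKM over RIP and input. With Mettl3, 517 retained-intron transcripts qualified (47.9%) and 263 of them (50.9%) were at least 2-fold above input, where 51.1% of all 6667 qualifying transcripts were. Their median was 1.01 on this scale, against 1.02 for all and 0.98 for protein_coding transcripts. With Zfp217, 508 qualified (44.7%) and 259 (51.0%) were at least 2-fold above input, where 49.1% of all 5248 were, with medians of 1.03 for members, 0.98 for all and 0.91 for protein_coding. The members' share past 2-fold was at the background in both RIPs.

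All 138 and 161 qualifying members near 0 in the input pass 2-fold by construction, since their mean is at least 1. Without them 125 of 379 (33.0%) passed with Mettl3, against 37.6% of all such transcripts, and 98 of 347 (28.2%) with Zfp217, against 28.4%. With input of at least 1 FPKM, where a plain ratio can be read, 87 of 176 members (49.4%) had a ratio of at least 2 with Mettl3, against a background of 54.3%, and 59 of 162 (36.4%) with Zfp217, against 39.3%. Median ratios were 1.99 against 2.07 for all such transcripts with Mettl3, and 1.84 against 1.87 with Zfp217. Ratios of 5 or more were found for 9 of the 176 members with Mettl3 and 5 of the 162 with Zfp217. Over all such transcripts they were found for 133 of 3725 and 46 of 2511. The members' share was somewhat above this background, on few members.

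The highest ratio with input of at least 1 FPKM belonged to Psat1, which encodes phosphoserine aminotransferase of the serine synthesis pathway. Its transcript ENSMUST00000161707 (chr19:15905130-15909712, minus strand, 1572 bases, 18.0% intronic) had 1.94 FPKM in the input, 44.4 FPKM with Mettl3 and 7.17 FPKM with Zfp217. The ratios were 22.9 (95% counting interval 14 to 40.1) and 3.65 (2.10 to 6.71). The Mettl3 value stands far above both others, and the Zfp217 value lies above the input. No protein_coding transcript of Psat1 was listed in either table.

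Ncor1, a corepressor of nuclear receptors, followed in the Mettl3 table with 2 transcripts. ENSMUST00000161281 (chr11:62327131-62330943, minus strand) had 1.63 FPKM in the input and 15.9 with Mettl3, a ratio of 9.75 (3.93 to 31.9). ENSMUST00000161767 had 1.33 and 11, a ratio of 8.30 (3.09 to 31.0). Neither was listed with Zfp217, and they hold 19 and 29 intronic bases in 643 and 667.

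Acin1 encodes acinus, a nuclear protein tied to splicing and the exon junction complex. Its transcript ENSMUST00000129700 (chr14:54651400-54663706, minus strand, 45.6% intronic) had 1.1 FPKM in the input, 8.97 with Mettl3 and 12.4 with Zfp217. The ratio of 11.2 (3.89 to 47.6) was the highest of the Zfp217 table at this input level, beside 8.17 (2.84 to 34.7) with Mettl3. It was high in both RIPs.

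The other high Mettl3 ratios named here came from transcripts of which 9.24% to 66.1% was intronic, a range that does not cover transcripts not reported here. Khdrbs1 encodes Sam68, an RNA-binding splicing regulator, and its transcript ENSMUST00000139281 (chr4:129728935-129742303, minus strand) is 66.1% intronic. It had 1.01 FPKM in the input, 6.36 with Mettl3 and 2.01 with Zfp217, with a Mettl3 ratio of 6.30 (3.33 to 13.3). Rpap1, an RNA polymerase II-associated protein, had 1.14, 7.16 and 1.86 FPKM for ENSMUST00000139311 and a Mettl3 ratio of 6.29 (4.32 to 9.47). Tfrc encodes the transferrin receptor, and its transcript ENSMUST00000128285 (chr16:32624442-32632790, plus strand) had 4.09 FPKM in the input, 21.4 with Mettl3 and 7.57 with Zfp217. Its Mettl3 ratio of 5.24 (4.15 to 6.69) had one of the narrowest intervals, since it rested on about 692 fragments. Npepps, an aminopeptidase, had a Mettl3 ratio of 5.05 for ENSMUST00000146833, and Hirip3, a binding partner of the histone chaperone HIRA, had 4.53 (2.29 to 10.1) for ENSMUST00000150942, which keeps the complete 97-base intron shown above.

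Other high ratios of the Zfp217 table were those of a translation initiation helicase, a chaperonin and a cell cycle factor. Eif4a2 transcript ENSMUST00000149328 had 1.75 FPKM in the input and 10.1 with Zfp217, a ratio of 5.79 (2.05 to 22.3). Tcp1, a subunit of the cytosolic chaperonin, had 2.88 FPKM in the input, 16.1 with Zfp217 and 4.97 with Mettl3 for ENSMUST00000138709 (chr17:12920117-12922732, plus strand), and its Zfp217 ratio was 5.6 (2.90 to 12.0). Mybl2, a transcription factor of dividing cells, had 2.53, 13.0 and 6.88 FPKM for ENSMUST00000138414 and a Zfp217 ratio of 5.14 (2.30 to 13.5). Others in the leading 10 were Rps18 (a small-subunit ribosomal protein, ratio 4.01), an Npepps transcript (3.97), Ahcy (the enzyme that breaks down S-adenosylhomocysteine, 3.74), Psat1 and Hells (a chromatin remodeller, 3.64). The counting interval of Rps18, 0.95 to 29.8, includes 1.

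Several abundant members other than Psat1 and Tfrc had modest ratios. The Tardbp transcript ENSMUST00000147391, from the gene of the RNA-binding protein TDP-43, had 21.8 FPKM in the input, 39.6 with Mettl3 and 38.9 with Zfp217, with ratios of 1.82 (1.46 to 2.28) and 1.77 (1.4 to 2.23). GENCODE M21 lists this transcript as nonsense_mediated_decay and no longer as retained_intron. Hnrnpu, a nuclear RNA-binding scaffold protein, had 12.7 FPKM in the input and 19.3 with Zfp217, and Prrc2a, an RNA-binding protein, had 8.68 and 22.0. Gnb2, a G protein beta subunit, stood apart in this group with 0.615 FPKM in the input, 18.6 with Zfp217 and 6.81 with Mettl3, though its transcript has only 13 intronic bases in 712.

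How much intron a member holds moved with its values. With Mettl3, 46 members had under 5% intronic bases and a median RIP level of 2.47 FPKM, and 6 of them reached 10 FPKM, whereas the 389 members with at least 50% had a median of 1.61 FPKM and 4 reached it. In the Zfp217 table the medians were 2.45 FPKM for 43 members and 1.44 for 382. Input under 0.01 FPKM was found for 63.0% of the first set and 32.1% of the second with Mettl3, and for 55.8% and 37.4% with Zfp217. The members with the most intron were thus lower in the RIPs, and less often near 0 in the input, than those with the least. Median lengths also differed, 1742 against 921 bases in the Mettl3 table and 953 against 805 in the Zfp217 table, and the part of length in the result was not tested. Members with a complete intron had a median ratio of 1.78 with Mettl3 at input of at least 1 FPKM (49 transcripts, 15 of them at 2 or more), against 2.11 for members with part of one (109, of which 67). With Zfp217 the medians were 1.80 (45, of which 13) and 1.89 (102, of which 42).

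Of the 1785 members 430 were in both tables, which is 39.9% of the Mettl3 members and 37.9% of the Zfp217 members. Another 649 were only in the Mettl3 table and 706 only in the Zfp217 table. Over all listed transcripts the shared part was 42.4% and 49.6%, and over protein_coding ones 43.9% and 55.4%. Both tables use the same input library, so entry into one is not independent of entry into the other. By gene symbol 485 genes had a member in both tables, 410 only with Mettl3 and 461 only with Zfp217. Members of both tables were somewhat more abundant, with median RIP levels of 1.85 and 1.77 FPKM, than members of one table, with 1.53 for Mettl3 and 1.51 for Zfp217. They were also less often near 0 in the input, at 44.9%, against 52.7% of members only in the Mettl3 table and 56.2% of those only in the Zfp217 table.

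As a description only, since the input is shared, 175 of the 430 had a mean of at least 1 FPKM in both tables, and 68 of these (38.9%) were at least 2-fold above input in both, where 38.5% of all 2663 such transcripts were. Near-0 inputs made up 36 of the 68. By the smaller of their ratios the leading members included Acin1, Psat1, Yrdc (a tRNA modification enzyme, 3.18 with Mettl3 and 3.15 with Zfp217), Eif4g1 (a translation initiation scaffold, 3.37 and 3.06), Mybl2, Npepps and Dkc1 (a pseudouridine synthase, 2.57 and 2.48). For Yrdc the counting intervals, 0.783 to 22.7 and 0.714 to 23.4, include 1. With Zfp217 so do those of Npepps ENSMUST00000146833 (0.762 to 10.8) and Dkc1 (0.967 to 7.35).

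Between the antibodies, the 430 shared members had a median log2 ratio of Mettl3 to Zfp217 FPKM of 0.07 (middle 50% from -0.38 to 0.44), against 0.09 over all shared transcripts, and the Mettl3 value was the higher one for 232. At least 2-fold more was found with Mettl3 for 31 members (7.21%), against a background of 9.91%, and with Zfp217 for 32 (7.44%), against 6.68%. Psat1 was furthest towards Mettl3 among members with all values of at least 1 FPKM, at 6.20-fold, followed by Rpap1 (3.85-fold), Khdrbs1 (3.16-fold), Tfrc (2.83-fold) and Npepps ENSMUST00000146833 (1.98-fold). Tcp1 was furthest towards Zfp217 at 3.24-fold, followed by Npepps ENSMUST00000170506, Ahcy, Mybl2 and Hells. The coding Tcp1 transcript ENSMUST00000151287 leaned the other way, from 0.851 to 11.3 FPKM with Mettl3 and from 0.860 to 7.50 with Zfp217. Coding transcripts of Rpap1 (6.55 FPKM with Mettl3 and 3.77 with Zfp217) and Mybl2 (2.21 and 2.78) leaned as the members did. The 2 Npepps transcripts lay on opposite sides: ENSMUST00000146833 had 7.0 FPKM with Mettl3 and 3.54 with Zfp217, and ENSMUST00000170506 had 1.55 and 4.10. Hnrnpl ENSMUST00000174526, with input at 0, was 81.1-fold higher with Zfp217.

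**Figure D3:**
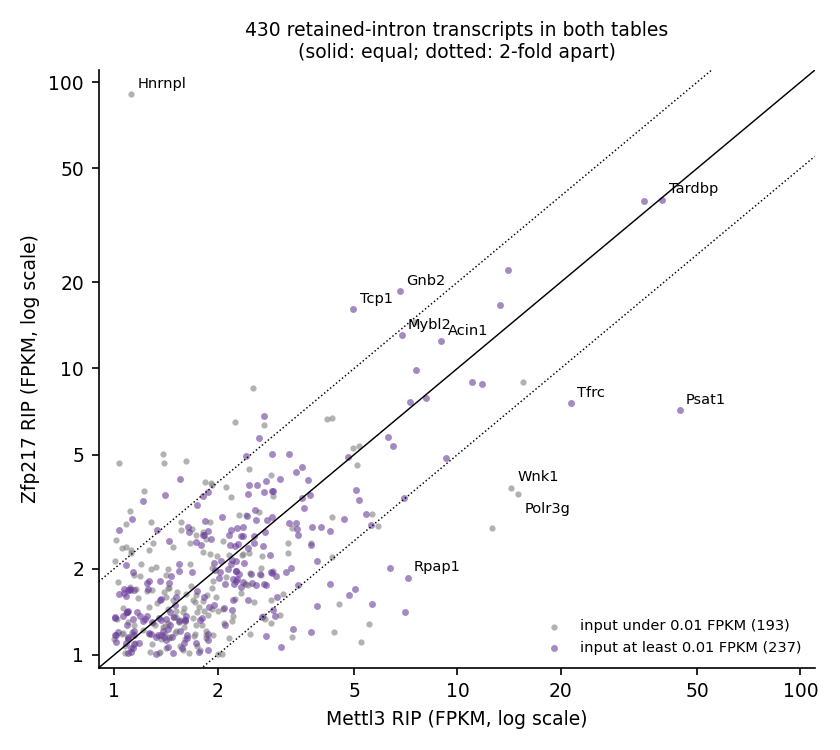
Zfp217 RIP level against Mettl3 RIP level (FPKM, log scales) for the 430 retained-intron transcripts listed in both tables; each point is 1 transcript, coloured by whether its input is under 0.01 FPKM (193) or not (237), and the lines mark equal levels and 2-fold differences. Most points lie within 2-fold, Hnrnpl stands far above the lines and Psat1 far to the right.

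For about 2 in 5 genes a retained-intron transcript was listed with no protein_coding transcript of the same gene. With Mettl3, 422 of 895 genes (47.2%) had a protein_coding transcript in the same table, 118 (13.2%) only in the other table and 355 (39.7%) in neither. In the Zfp217 table these were 427 of 946 (45.1%), 142 (15.0%) and 377 (39.9%). A protein_coding transcript is annotated in GENCODE M21 for 313 of the 355 genes and for 340 of the 377, so for most of them a coding form is known and was not among the listed transcripts. For comparison, 48.3% and 41.5% of genes with a nonsense_mediated_decay transcript and 44.7% and 39.3% of those with a processed_transcript had a protein_coding transcript in the same table.

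The presence of a coding partner moved little with the members' values in the Mettl3 RIP. Median RIP levels were 1.75, 1.6 and 1.56 FPKM for genes with the partner in the same table, in the other table and in neither, and 46.0%, 52.4% and 52.9% of their members were near 0 in the input. With Zfp217 the levels were 1.59, 1.57 and 1.61 FPKM and the shares 49.8%, 48.2% and 55.8%. At least 2-fold above input on the log scale were 50.4%, 50.7% and 51.6% of qualifying members with Mettl3, and 46.1%, 49.4% and 57.9% with Zfp217. At input of at least 1 FPKM the median ratios were 1.99, 2.09 and 1.93 with Mettl3 and 1.81, 1.83 and 1.88 with Zfp217. Genes with no coding partner in either table and with high Mettl3 ratios included Psat1, Khdrbs1, Hirip3, Baz1b (a chromatin remodelling subunit, 3.13) and 9930104L06Rik (2.98). With Zfp217 they included Eif4a2, Rps18, Ahcy, Psat1 and Clcn2 (a chloride channel, 2.95).

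Within one gene neither form was clearly the more enriched one over all pairs of listed transcripts. A transcript under the limits of listing could not enter a pair, so the coding partner need not be the gene's main coding form. Where both inputs could be read the retained-intron transcript was more often the lower one, though less so by the plain ratio with Mettl3. Taking the most abundant listed transcript of each class, the retained-intron one had the higher log2((RIP + 1)/(input + 1)) in 92 of 196 genes (46.9%) with Mettl3. With Zfp217 it did in 80 of 179 (44.7%), and the median differences were -0.07 and -0.11. With input of at least 1 FPKM for both transcripts it was higher on this scale in 19 of 51 genes (37.3%) and in 9 of 30 (30%). Median differences were -0.18 and -0.19. By the plain ratio some of these genes change sides, mostly with Mettl3 and towards the retained-intron form. That form still had the lower plain ratio in more genes than not with both antibodies. With 0.1 in place of 1 in the scale the retained-intron form was the higher one in 50.5% of the 196 genes with Mettl3, which turns the direction. With Zfp217 it was in 48.6% of the 179. The 0.1 setting was not applied to the genes with input of at least 1 FPKM. The +1 pulls lower values towards 0, and the retained-intron transcripts were lower in the RIP, at medians of 3.89 against 7.96 FPKM with Mettl3 and 3.43 against 7.06 with Zfp217.

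Single genes ran strongly both ways where both transcripts had input of at least 1 FPKM. With Mettl3, the Eef1a1 (translation elongation factor 1 alpha) transcript that keeps the 77-base intron shown above went from 4.21 to 8.66 FPKM, a ratio of 2.06. The protein_coding Eef1a1 transcript, ENSMUST00000156988, went from 16.4 to 97.3 FPKM, a ratio of 5.94. It has only 745 bases, and no other coding Eef1a1 transcript was listed with Mettl3. The splicing proteins Rbm39 and Srrm1 had 1.56 and 1.89 for the retained-intron form against 4.48 and 3.47 for the coding form. The Srrm1 value of 1.89 is loose (0.576 to 7.99), and the Rbm39 interval (0.742 to 3.52) also includes 1. Other Srrm1 retained-intron transcripts, outside the input limit, went from 0.446 to 1.97 FPKM (4.41-fold) and from an input listed at 0 to 2.30 FPKM. Cenpa (the centromeric histone) and Eda2r (a TNF receptor family member) also had the lower ratio for the retained-intron form. In the opposite direction Ncor1 had 9.75 against 1.87, from 6.19 to 11.6 FPKM, though coding Ncor1 transcripts outside that limit went as high, one from 0.901 to 9.13 FPKM (10.1-fold) and one, ENSMUST00000037575, from an input listed at 0 to 14.1 FPKM. Mms22l (a replication fork repair protein) had 3.52 against 1.51, and Odf2 (a centriole protein), Bcat2 and Slc1a5 (an amino acid enzyme and an amino acid transporter) followed.

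With Zfp217 the retained-intron form was the higher one for Acin1 (11.2 against 1.80), Npepps (3.97 against 1.52), Pfkp (a glycolytic enzyme, 2.63 against 1.61), Slc25a36 (a mitochondrial carrier, 2.98 against 2.12) and Nom1 (a nucleolar protein, 2.09 against 1.63). It was the lower one for Psip1 (a chromatin-binding coactivator, 1.78 against 12.6), Slc29a1 (a nucleoside transporter, 1.61 against 6.72), Polr1c (a subunit of RNA polymerases I and III), Arrdc4 and Rpap1. For Psip1 the coding transcript was short, at 463 bases, and went from 1.18 to 14.8 FPKM. The retained-intron one went from 4.41 to 7.86. Among the retained-intron ratios, the counting intervals of Pfkp (0.973 to 8.43) and Nom1 (0.662 to 8.04) include 1. So do those of Slc29a1 (0.928 to 2.87), Polr1c (0.492 to 7.40) and Rpap1 (0.915 to 3.11).

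**Figure D4:**
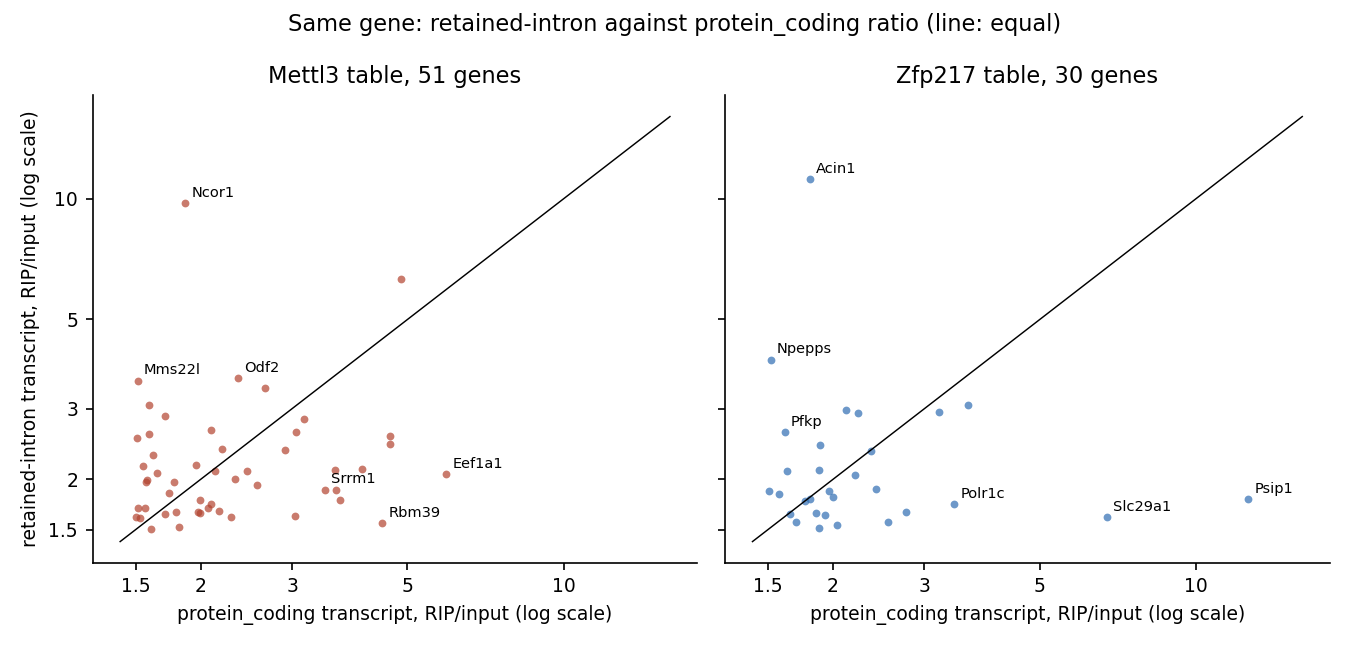
RIP to input ratio of the listed retained-intron transcript against that of the listed protein_coding transcript of the same gene (log scales). It is shown for 51 genes with Mettl3 and 30 with Zfp217 that had input of at least 1 FPKM for both transcripts. Each point is 1 gene and the line marks equal ratios. More points lie under the line than above it at this input level, and Ncor1 and Acin1 stand highest above it.

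Several groups of genes that read and process RNA held a retained-intron member more often than listed genes as a whole. Of the genes listed at all in the Mettl3 table, 12.8% had a retained-intron transcript listed, and with Zfp217 15.9%. Among translation factors and tRNA synthetases the counts were 16 of 31 listed genes (51.6%) and 13 of 22 (59.1%). Among spliceosome proteins they were 14 of 38 (36.8%) and 16 of 40 (40.0%), and among cytosolic ribosomal proteins 14 of 43 (32.6%) and 15 of 42 (35.7%). Chromatin remodellers and corepressors had 12 of 35 (34.3%) and 8 of 35 (22.9%), and DNA replication and cell cycle genes 9 of 36 (25%) and 14 of 39 (35.9%).

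The annotation moved with these counts. Of all listed genes 49.1% in the Mettl3 table and 51.5% in the Zfp217 table have any retained-intron transcript annotated in GENCODE M21 under the same symbol, with a mean of 1.29 and 1.42 per gene. For translation factors and tRNA synthetases the shares were 83.9% and 86.4%, with means of 3.23 and 3.41, and for spliceosome proteins 78.9% and 80.0%, with means of 2.92 and 2.80. Taken only over genes with such an annotation, 61.5% and 68.4% of translation genes and 46.7% and 50% of spliceosome genes had one listed, against 23.9% and 28.1% of all listed genes. Ribosomal protein genes had 38.9% and 44.1%, chromatin genes 42.9% and 29.6%, DNA replication and cell cycle genes 32.1% and 46.7%, SR proteins 35.7% in both tables and hnRNP genes 25% and 26.7%. The chromatin group with Zfp217 and the hnRNP group in both tables thus lay near the value for all listed genes. Pluripotency factors had 30% and 25%, of only 10 and 8 annotated genes, m6A genes 28.6% and 16.7%, of 7 and 6, and Polycomb and Trithorax genes 11.1% and 23.1%. Genes were not matched for expression level, and its part in these counts was not tested.

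**Figure D5:**
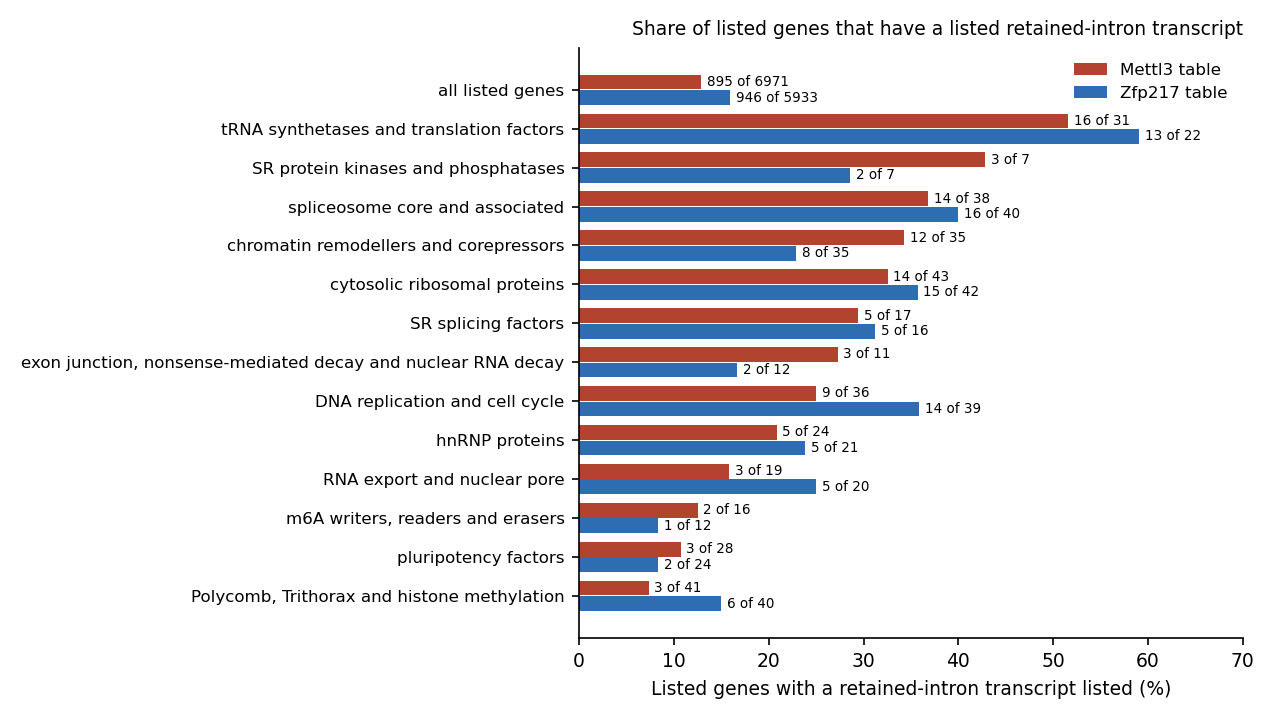
Share (%) of the listed genes of each gene group that have a retained-intron transcript listed, for the Mettl3 and Zfp217 tables, with the counts beside each bar and all listed genes on top. Translation factors and tRNA synthetases have the longest bars in both tables (16 of 31 and 13 of 22), and the bars of the pluripotency, m6A and Polycomb groups are shorter than or near those of all listed genes.

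Counts of members past 2-fold within a group are read against the 51.1% with Mettl3 and 49.1% with Zfp217 of all qualifying transcripts, and those near 0 in the input pass by construction. Among translation genes 7 of 16 qualifying members passed with Mettl3, 4 of them near 0 in the input, and 11 of 18 with Zfp217, 6 of them near 0. Eif4a2 was the gene with the highest levels: ENSMUST00000141392 had 10.2 FPKM in the input and 16.4 with Mettl3, and ENSMUST00000125969 had 13.8 and 24.3 with Zfp217. Eif4a1, its close paralog, had 6.35 and 10.7 FPKM with Zfp217, and reads shared between the genes could be split by the authors' software. Farsa, a subunit of phenylalanyl-tRNA synthetase, had ratios of 1.89 and 1.94 for a transcript with a complete short intron. Its counting intervals, 0.943 to 4.11 and 0.930 to 4.32, include 1.

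Among spliceosome proteins 4 of 9 qualifying members with Mettl3 and 6 of 13 with Zfp217 passed 2-fold, against 51.1% and 49.1% of all, and 2 and 4 of them were near 0 in the input. Besides Acin1, Prpf6 (a tri-snRNP protein) had 1.13 FPKM in the input and 2.94 with Mettl3. Eftud2, a GTPase of the U5 snRNP, had 1.43, 2.75 and 2.69 FPKM in the input and the Mettl3 and Zfp217 RIPs. With Zfp217, Prpf31 had 2.12 and 3.64 FPKM and Luc7l 3.26 and 4.92. The ratios of Eftud2, Prpf31 and Luc7l were all under 2.

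The SR proteins bind exons and recruit the spliceosome. They had a listed retained-intron transcript for 5 of 17 listed genes with Mettl3 (29.4%) and 5 of 16 with Zfp217 (31.25%). Of all listed genes 12.8% and 15.9% had one. Among qualifying SR members 3 of 7 and 1 of 6 passed 2-fold, 2 and 1 of them near 0 in the input, against 51.1% and 49.1% of all. Srsf5 had 1.42 FPKM in the input and 3.16 with Mettl3 for a transcript holding complete introns, and Scaf1 had 1.57 and 4.11. With Zfp217, Srsf3 had 6.24 and 11 FPKM, Srsf11 3.68 and 6.97, and Tra2b 4.23 and 7.26, with ratios of 1.76, 1.89 and 1.71. The kinases of SR proteins had 3 of 7 (42.9%) and 2 of 7 (28.6%) listed genes, among them Clk2 with 1.74 and 3.72 FPKM and Srpk1 with 1.93 and 2.95 with Mettl3. Over kinase genes with such a transcript annotated the shares were 50% and 28.6%, against 23.9% and 28.1% of all listed genes with one. The hnRNP genes had 5 of 24 (20.8%) and 5 of 21 (23.8%).

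Ribosomal protein genes had 7 of 11 and 10 of 14 qualifying members past 2-fold, against 51.1% and 49.1% of all, with 5 and 6 of them near 0 in the input. The Rpl10 transcript ENSMUST00000146584 had 1.03 FPKM in the input, 2.43 with Mettl3 and 3.05 with Zfp217. Its counting intervals, 0.681 to 11.6 and 0.825 to 14.6, include 1. Ribosomal protein genes have many near-identical processed copies, so their values are uncertain where reads fit several places. Among the chromatin genes 5 of 11 and 3 of 7 passed 2-fold, again against 51.1% and 49.1%, and 2 of the 5 and all 3 were near 0 in the input. Besides Ncor1, Sin3a (the scaffold of a histone deacetylase complex) had 7.06 FPKM in the input and 13.9 with Mettl3, and Brd2 (a bromodomain protein) had 2.37 and 6.21. With Zfp217, Hdac1 had 1.56 and 2.56 FPKM and Smarca5 1.84 and 2.89.

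For the DNA replication and cell cycle genes every qualifying member past 2-fold, 4 with Mettl3 and 7 with Zfp217, was near 0 in the input, so those counts hold no more than the selection. Rfc5, a clamp loader subunit, had 7.23 FPKM in the input and 15.1 with Mettl3. Cdk1 and Ccnb1, which drive mitosis, had ratios of 1.88 and 1.62 with Zfp217, and Mad2l1, a spindle checkpoint protein, had 2.11. The counting intervals of Cdk1, Ccnb1 and Mad2l1 include 1.

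The m6A, pluripotency and Polycomb groups, which are nearest to the study's question, had few members, and their shares are read against the 12.8% and 15.9% of all listed genes. Of listed genes for m6A writers, readers and erasers, 2 of 16 with Mettl3 (12.5%, Igf2bp2 and Ythdc1) and 1 of 12 with Zfp217 (8.33%, Ythdc1) had one. Igf2bp2, a reader, had 3.8 FPKM in the input and 6.17 with Mettl3 for ENSMUST00000134188, which has 8 intronic bases in 3267. Ythdc1, the nuclear m6A reader, had 0.814 FPKM in the input, 1.75 with Mettl3 and 3.35 with Zfp217 for ENSMUST00000151489. Pluripotency factors had 3 of 28 (10.7%, Tbx3, Trim28 and Zfx) and 2 of 24 (8.33%, Stat3 and Trim28). The Trim28 corepressor transcript ENSMUST00000128951, which keeps both introns shown above, had 2.46 FPKM in the input and 6.06 with Zfp217. Polycomb and Trithorax genes had 3 of 41 (7.32%) and 6 of 40 (15%), among them Suz12 with 6.72 and 14 FPKM with Mettl3 and Ezh2 with 1.27 and 1.96 with Zfp217, both subunits of Polycomb repressive complex 2. RNA export and nuclear pore genes had 3 of 19 (15.8%) and 5 of 20 (25%), and exon junction and RNA decay genes 3 of 11 (27.3%) and 2 of 12 (16.7%).

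Most genes gave a single member. With Mettl3, 739 genes had 1 listed retained-intron transcript, 133 had 2 and 23 had 3 or more, and in the Zfp217 table these were 784, 139 and 23. Npepps had the most with Mettl3, at 5. Transcripts of one gene share reads, so these are not independent. How many could appear depended on the authors' annotation, whose release is not given. Of all retained-intron transcripts in GENCODE M21, 8.41% were listed in either table, against 12.8% of protein_coding, 6.78% of nonsense_mediated_decay and 8.61% of processed_transcript RNAs. GENCODE M21 may hold transcripts that the authors' annotation lacked, and not equally in each class, so these shares compare the classes only roughly. Of the members' IDs 96.0% and 96.7% were found in that release, and 1006 and 1068 of them were still retained_intron there.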

How the data were processed

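The deposited values are FPKM per Ensembl transcript for 1 input, 1 Mettl3 RIP and 1 Zfp217 RIP library, in 2 tables that pair each RIP with the input. The submitters' processing notes name CASAVA 1.4, Bowtie2, TopHat2 2.0.8, Cufflinks, Cuffdiff and build mm9. For their roles, settings, annotation release and strand handling: not given in the sources used here, labels included. The authors' deposited log2 column of RIP over input, which codes an input of 0 as infinite, was not printed. The input of the Mettl3 table was 0.989 times that of the Zfp217 table at the median of 237 shared transcripts, and ratios were taken within a table.

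Members were the rows with source retained_intron. Ratios used log2 FPKM with a pseudocount of 1 and a mean of at least 1 FPKM, with 2-fold as the rule of size. Plain ratios were used only at an input of at least 0.01 FPKM. Fragments were estimated from whole-read steps of short RNAs. Values were within 0.04 of a whole number for 19 of 25, 22 of 25 and 7 of 8 of them in the Mettl3 RIP, the Zfp217 RIP and the input. The depths were chosen to make these counts highest, so the counts are no check on them, and the error of the depths was not estimated. Exact binomial 95% intervals cover counting error only. Lengths, introns and sequences came from GENCODE M21 (GRCm38) by transcript ID, and no coordinate was converted. A complete retained intron is an intron of a protein_coding transcript of the gene that lies within 1 exon of the member.

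Named transcripts are the highest ratios, RIP levels and differences between antibodies, the extremes of the gene pairs, the highest members near 0 in the input and up to 4 per gene list, none under 300 bases, and a few that meet these rules are not reported here. Transcripts ENSMUST00000174396 and ENSMUST00000151489, the coding Ncor1, Tcp1, Rpap1 and Mybl2 transcripts and the other Srrm1 transcripts were named after their values were seen. So were the genes of lists with few members. The members, the 13 gene lists and the rules were chosen with earlier results of these data known. With 1 library per group no test was run. Scripts used Python 3.11.15, pandas 2.3.3, NumPy 2.4.6, SciPy 1.17.1 and Matplotlib 3.10.9, and were tested on simulated data.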

Additional observations from a re-analysis of the deposited data

How the results depend on the processing

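No paired analysis was possible because each group has 1 library. The counts of members at least 2-fold above input were 263 with Mettl3, 259 with Zfp217 and 68 in both RIPs, and 17 shared members with a mean of at least 1 FPKM were 2-fold apart between the RIPs on the scale of log2(FPKM + 1), a narrower measure than the plain FPKM ratios of the report. A pseudocount of 0.01 gave 399 with Mettl3 and 117 in both, and one of 0.1 gave 113 in both. No filter on low values gave 677, 708, 232 and 29 in the same order. A mean of at least 3 FPKM gave 47, 38, 11 and 4. Leaving out inputs under 0.01 FPKM gave 125, 98 and 32, and input of at least 1 FPKM gave 38, 28, 7 and 7. The share near 0 in the input, 49.6% and 51.9%, was 33.7% and 41.4% at a RIP level of at least 2 FPKM. The share of genes with a protein_coding partner, 47.2% and 45.1%, was 60.3% and 60.1% with either table counted, 36.1% and 30.1% at input of at least 0.01 FPKM, and 41.1% and 37.0% at a RIP level of at least 2 FPKM. The share of genes whose retained-intron form had the higher log2((RIP + 1)/(input + 1)), 46.9% and 44.7%, was 37.3% and 30% at input of at least 1 FPKM for both forms. The other 20 of 48 alternatives moved a count by less than 1.5 times or a share by less than its 95% interval. Of these, a pseudocount of 0.1 took the share of genes whose retained-intron form was higher to 50.5% with Mettl3, the other side of equal, and to 48.6% with Zfp217. With 1 library per group no spread between replicates is known, and a median of 14 and 8.31 fragments per member limits each single ratio.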
